A study of Larimichthys crocea with 3 samples.

Results

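Testis RNA of a seasonally breeding marine fish, the large yellow croaker Larimichthys crocea, was compared between an adult differentiating and an adult regressed state. Single-cell RNA libraries had been made from dissociated fresh testis with droplet capture and 3′-end counting (10x Genomics Chromium 3′ v3), 1 library per state. The adult differentiating library came from an adult testis labelled as differentiating, and the adult regressed library from an adult testis labelled as regressed. The labels name no treatment, strain, transgene or age for either, do not say how many fish each library holds, and describe the same dissociation for both after removal of blood and of the tunica albuginea. A juvenile testis library of the same series was not used in the comparison. Every barcode, that is every droplet taken as a cell, with at least 500 unique molecular identifiers (UMIs, each counted as 1 captured RNA molecule) and at least 300 detected genes was kept, which gave 14769 adult differentiating and 17825 adult regressed barcodes. These were 32594 of the 37336 barcodes of the series that met the same limits. Below, the differentiating and the regressed testis stand for these 2 libraries. UMIs were summed over barcodes in each library, and each of the 27368 listed genes was expressed as CPM, its UMIs per 1e6 UMIs of its library.

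In a seasonal fish testis, germ cells develop in cysts enclosed by Sertoli cells. Spermatogonia multiply by mitosis, spermatocytes pair and recombine their chromosomes along the synaptonemal complex and divide by meiosis, and spermatids then build a flagellum around an axoneme of microtubules, dynein motors and radial spokes. In the regressed state outside the breeding season spermatogenesis is reduced and the tissue is dominated by early germ cells and somatic cells.

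The 2 libraries differed in depth before any gene was compared. The median barcode held 3808 UMIs and 1997 genes in the adult differentiating library, against 12788 UMIs and 3857 genes in the adult regressed library, and the sums were 102790688 UMIs in the adult differentiating and 293007561 UMIs in the adult regressed library. When each barcode was thinned at random to 1000 UMIs, so that depth was equal, the median number of genes was 759 in 13298 adult differentiating barcodes and 682 in 17163 adult regressed barcodes. The barcode sequences shared by both libraries numbered 68, which was 0.460% of the adult differentiating and 0.381% of the adult regressed barcodes. Doublets were kept. With 1 library on each side there was no test: library, fish, capture and season cannot be told apart, and every interval given is an exact interval at the 95% level that covers counting error only. In sums over a library, fewer cells of a type and less RNA per cell cannot be told apart either.

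Genes with a mean of at least 5 CPM over both libraries are called genes read, and 11451 met that limit. Of these, 2481 (21.7%) were at least 2-fold higher and 1246 (10.9%) at least 2-fold lower in the differentiating testis, while 7724 (67.5%) lay within 2-fold. The shares of 21.7% and 10.9% are the background for every list count below. A gene low in either library can meet the limit of 5 CPM only through the other, so directions among genes near the limit are partly set by it. At 4-fold the counts were 944 higher (8.24%) and 237 lower (2.07%). The median log2 ratio of all genes read was 0.133. The upper tail was the longer of the 2, with 374 genes at least 10-fold higher and 85 at least 100-fold higher, against 57 genes at a ratio of 0.1 or less. Genes at least 2-fold higher took 31.2% of all UMIs of the differentiating testis and 8.22% of those of the regressed testis. Genes at least 2-fold lower took 12.4% of the differentiating and 33.8% of the adult regressed UMIs. The balance of the 2 counts depended on the scaling: with ribosomal protein and mitochondrially encoded genes left out of the denominator it was 1865 higher against 2291 lower, and among barcodes of 2000 to 8000 UMIs it was 2197 against 3353, with the median of the genes read moved by -0.475 on the log2 scale.

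**Figure D1:**
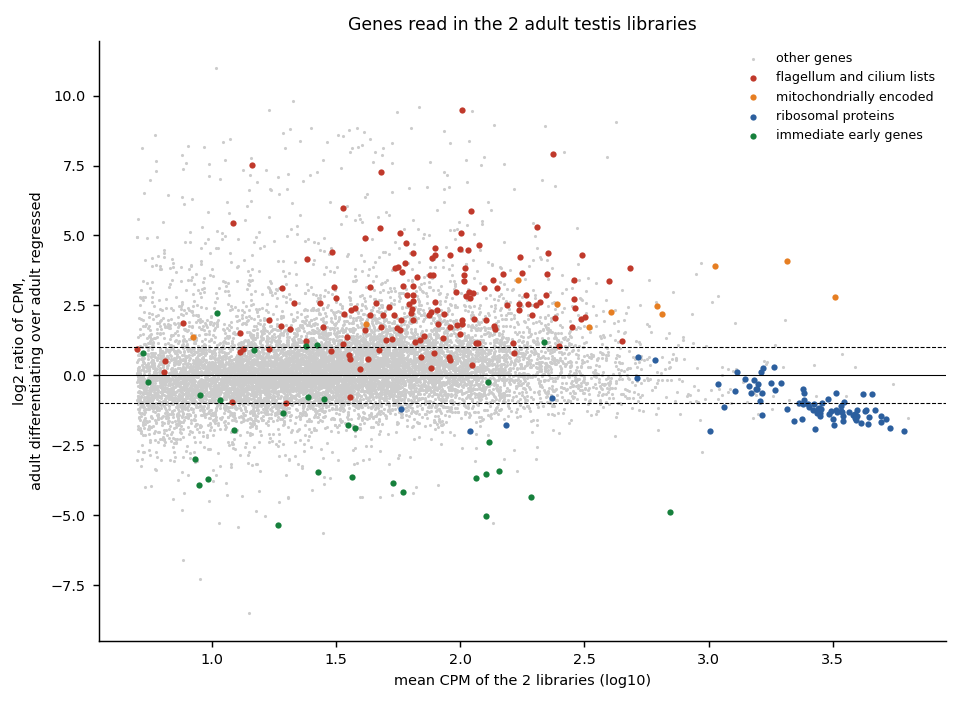
Each point is 1 of the 11451 genes read, with the log10 of its mean CPM over both libraries on the x axis and the log2 ratio of differentiating over adult regressed CPM on the y axis; dashed lines mark 2-fold, and flagellum and cilium, mitochondrially encoded, ribosomal protein and immediate early genes are coloured. Flagellum genes lie above the upper line at medium abundance, ribosomal protein genes form a group at the right, mostly below 0, and 2481 points lie on or above the upper line against 1246 on or below the lower.

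The genes with the highest ratios were nearly silent in the regressed testis. The 15 highest and 15 lowest are taken here among the genes read that have a symbol, 9490 in number. Some unnamed features lay further out, such as the long noncoding RNAs LOC113746242, with 2131 UMIs in the differentiating and 3 UMIs in the regressed testis, and LOC113747129, with 8 UMIs in the differentiating and 8231 UMIs in the regressed testis, both named after their values were seen. The gene c19h1orf94 ranked first among those with a symbol, with 136.7 CPM in the differentiating and 0.178 CPM in the regressed testis, a ratio of 770.3 (587.1 to 1032). The carbonic anhydrase gene cahz, whose product interconverts carbon dioxide and bicarbonate, had 848.3 CPM in the differentiating and 1.58 CPM in the regressed testis, a ratio of 537 (490.0 to 589.5). The gene cimip2b, for a protein inside the microtubules of cilia, had 203.5 CPM in the differentiating testis against 0.287 CPM in the regressed testis, a ratio of 709.7 (573 to 890.1). For cfap97d2, a relative of the cilia and flagella associated genes, the values were 222 CPM in the differentiating and 0.321 CPM in the regressed testis. The coiled-coil gene ccdc181 had 216 CPM in the differentiating against 0.648 CPM in the regressed testis, and the testis-expressed gene tex36 had 111 CPM in the differentiating and 0.164 CPM in the regressed testis. Over the 15 genes with a symbol and the highest ratios, the levels in the regressed testis rested on 14 to 463 UMIs, so they were low but not 0. The remaining genes among the 15 highest were lrrc18a, fam187a, fbxo39, ppp1r32, fam183a, ttll10, tmdd1, tmem81 and ak1, an adenylate kinase with 77.3 CPM in the differentiating and 0.273 CPM in the regressed testis.

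After thinning to 1000 UMIs, cahz was found in 31.1% of differentiating barcodes and 0.140% of regressed barcodes. Shares are also given for barcodes with at least 3 Sertoli cell genes. They were deep, may include doublets and are not shown to be free of germ cell RNA, so they do not measure the RNA carried over between droplets, which was not determined. There were 106 of them in the differentiating testis (median 38824.5 UMIs, against 4279.5 over all thinned barcodes) and 721 in the regressed testis (median 18705, against 13120). In these, cahz was found in 5.66% of the differentiating and 0.139% of the regressed barcodes, the last being 1 barcode. Its UMIs were concentrated: the tenth of differentiating barcodes richest in cahz held 71.1% of them.

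**Figure D2:**
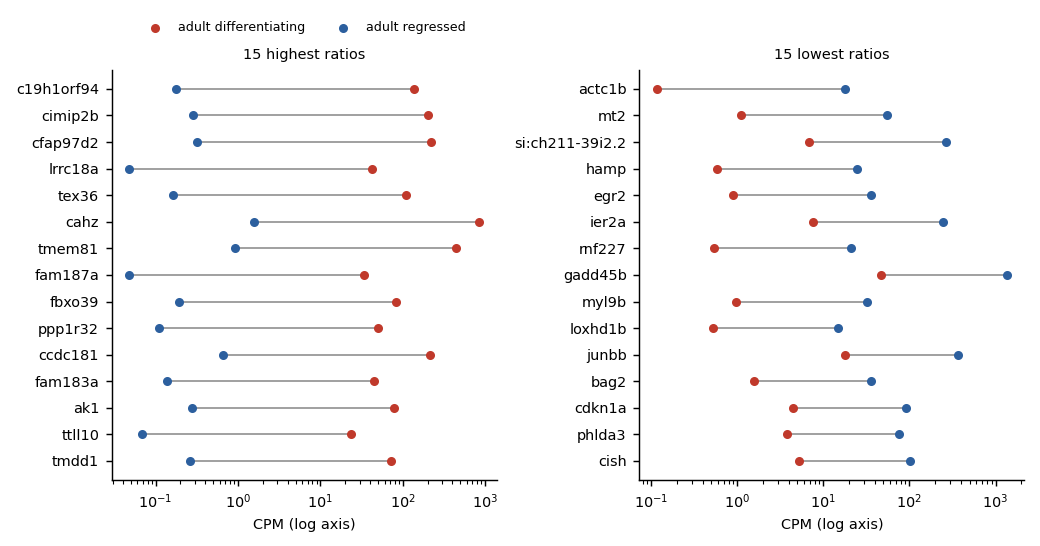
CPM on a log axis in the adult differentiating (red) and adult regressed (blue) library for the 15 genes with the highest and the 15 with the lowest ratio among genes read that have a symbol, ranked by the interval bound that lies closer to 1. The left panel runs from c19h1orf94, at 136.7 against 0.178 CPM, to tmdd1, at 72.9 against 0.263 CPM, and the right panel from actc1b, at 0.117 against 17.9 CPM, to cish, at 5.21 against 100.9 CPM.

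Genes of the flagellar axoneme were higher almost throughout. The radial spokes and the nexin links, which pass signals between the central microtubules and the dynein arms, had 28 members, all of them read. Of these, 26 were at least 2-fold higher in the differentiating and 0 at least 2-fold lower, beside 21.7% and 10.9% of all genes read, and their median log2 ratio was 3.136 against 0.133 for all genes. Their summed level was 5524 CPM in the differentiating and 698 CPM in the regressed testis. The largest ratio was that of spag16, a component of the central apparatus, with 28.8 CPM in the differentiating and 0.157 CPM in the regressed testis (ratio 183, 137 to 251). The nexin link genes tcte1 and drc1 followed. For tcte1 the levels were 92.2 CPM in the differentiating and 2.39 CPM in the regressed testis, and for drc1 they were 111 CPM in the differentiating and 3.26 CPM in the regressed testis. The most abundant member, drc10, had 725 CPM in the differentiating and 69.6 CPM in the regressed testis (ratio 10.4, 10.3 to 10.6). The 2 members within 2-fold were ccdc96, at 7.59 CPM in the differentiating and 5.32 CPM in the regressed testis, and ccdc113, at 99.5 CPM in the differentiating and 57.6 CPM in the regressed testis.

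The axonemal dyneins, the motors that slide the microtubules, were higher too. Of 20 members 18 were read and 16 were at least 2-fold higher in the differentiating testis, none at least 2-fold lower, with a median log2 ratio of 2.665. The outer arm heavy chain gene dnah8 was the most abundant, with 905 CPM in the differentiating and 63.8 CPM in the regressed testis (ratio 14.2, 13.96 to 14.4). The light intermediate chain gene dnali1 had 396 CPM in the differentiating and 9.93 CPM in the regressed testis (ratio 39.9, 38.5 to 41.5), and the heavy chain gene dnah10 had 196 CPM in the differentiating and 5.80 CPM in the regressed testis. The members with the smallest ratios were dnah9l and dnah9, both under 2-fold, and dynlrb2, a light chain gene with 336 CPM in the differentiating and 163 CPM in the regressed testis. After thinning, the median adult differentiating barcode gave 0.4% of its UMIs to axonemal dyneins and 11.3% of barcodes held none, while 50.7% of regressed barcodes held none.

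Factors that assemble dyneins in the cytoplasm were higher in the same manner. Of 17 members 16 were read, 13 were at least 2-fold higher and 0 at least 2-fold lower in the differentiating testis, and their median log2 ratio was 2.286. The assembly factor gene pih1d3 had 216.5 CPM in the differentiating and 3.72 CPM in the regressed testis (ratio 58.1, 54.7 to 61.8). The gene dnaaf1 had 206 CPM in the differentiating and 9.15 CPM in the regressed testis, and lrrc6 had 113 CPM in the differentiating and 7.04 CPM in the regressed testis. The most abundant, ccdc103, had 514 CPM in the differentiating and 122 CPM in the regressed testis. Among those with the smallest ratios, spag1a had 6.67 CPM in the differentiating and 6.19 CPM in the regressed testis, an interval of the ratio that spans 1 (0.986 to 1.18).

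The broader list of cilia and flagella associated genes had 43 members, 41 of them read. Of these, 36 were at least 2-fold higher and none at least 2-fold lower in the differentiating testis, with a median log2 ratio of 2.671. Behind cimip2b stood saxo2, for a protein that stabilises axonemal microtubules, with 469 CPM in the differentiating and 1.95 CPM in the regressed testis (ratio 240.1, 221 to 261). The gene cfap99 had 66.1 CPM in the differentiating and 1.051 CPM in the regressed testis. The list was not uniform: cfap73 had 8.22 CPM in the differentiating and 15.96 CPM in the regressed testis, and cfap410 had 26.4 CPM in the differentiating and 45.4 CPM in the regressed testis. Among tektins and tail scaffold genes, 7 of 9 members read were at least 2-fold higher. The tail anchoring protein gene akap14 had 95.7 CPM in the differentiating and 0.614 CPM in the regressed testis, and the tektin gene tekt4, for a filament of the axoneme wall, had 23.7 CPM in the differentiating and 0.543 CPM in the regressed testis. Its relative tekt2 went the other way, with 13.4 CPM in the differentiating and 26.4 CPM in the regressed testis (ratio 0.507, 0.479 to 0.537).

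Genes for transport into and along the flagellum were higher by less. Of the 28 intraflagellar transport genes, whose products carry axoneme parts to the growing tip, 22 were at least 2-fold higher in the differentiating and 28 were higher by any amount, with a median log2 ratio of 1.572. The transport gene hspb11 had 117 CPM in the differentiating and 12.9 CPM in the regressed testis (ratio 9.07, 8.75 to 9.41). At the other end of this list, ift20 had 82.9 CPM in the differentiating and 69.4 CPM in the regressed testis (ratio 1.19), and was lower with ribosomal protein and mitochondrially encoded genes left out of the denominator. Of the 11 read genes of the BBSome, a coat that carries membrane proteins in cilia, 9 were at least 2-fold higher, led by bbs9 with 77.9 CPM in the differentiating and 8.81 CPM in the regressed testis. The order of the list medians, from radial spokes through dyneins and assembly factors to intraflagellar transport and the BBSome, is a description of levels in these 2 libraries.

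**Figure D3:**
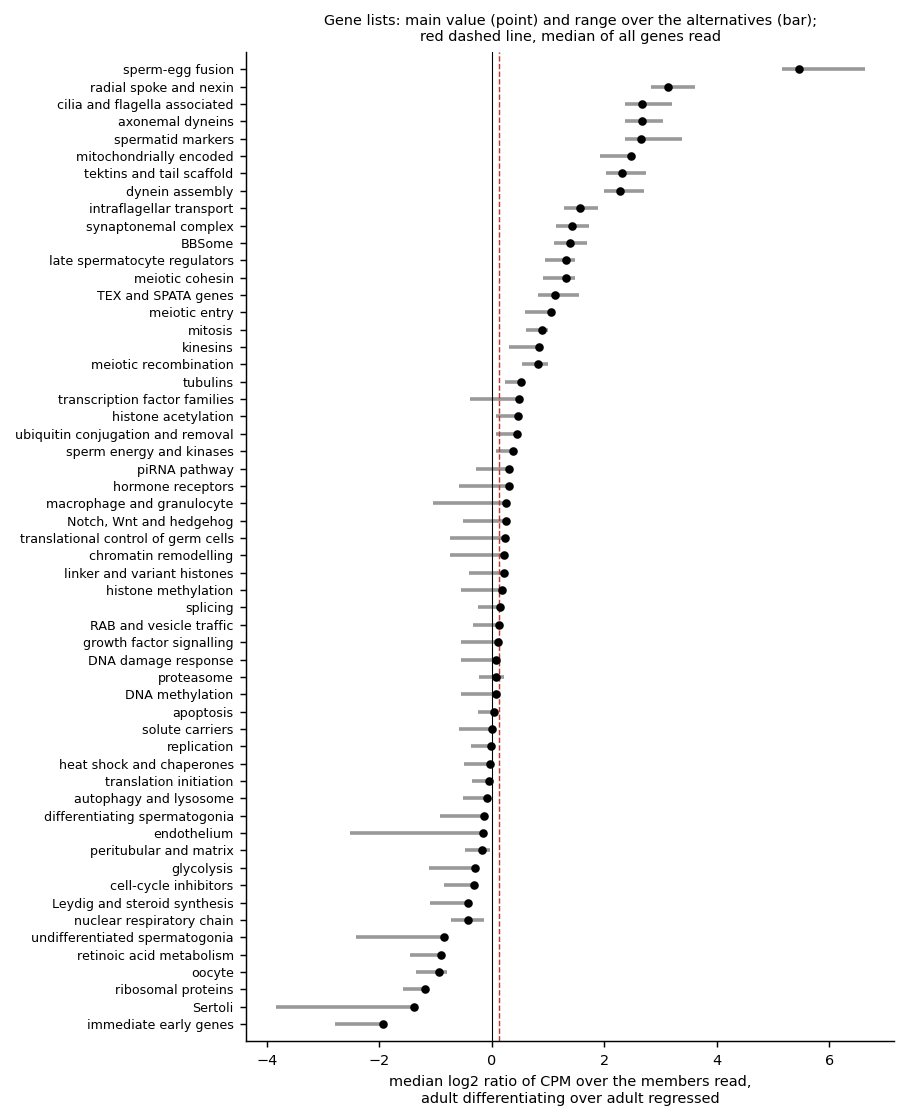
Median log2 ratio of CPM, adult differentiating over adult regressed, over the members read of each gene list with at least 3 members read (point), with the lowest and highest median under the alternative filters and scalings (grey bar); the dashed line is the median of all genes read, 0.133. Bars of the flagellum lists stay far right of 0, those of the ribosomal protein and immediate early lists stay left of 0, and many lists in the middle have bars that cross 0.

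The genes for the meeting of sperm and egg had the highest list median. Of 6 members 5 were read, and the 5 were between 10.5-fold and 479-fold higher in the differentiating testis, with a median log2 ratio of 5.465. The gene tmem81, whose product joins Izumo1 and Spaca6 in the complex that links zebrafish sperm to the egg, had 438 CPM in the differentiating and 0.915 CPM in the regressed testis (ratio 479, 425.0 to 542). The gene izumo1 had 26.5 CPM in the differentiating and 0.164 CPM in the regressed testis, and spaca6 had 20.0 CPM in the differentiating and 0.846 CPM in the regressed testis. The sperm membrane protein genes dcst1 and dcst2 completed the set. For dcst1 the levels were 79.0 CPM in the differentiating and 1.79 CPM in the regressed testis, and for dcst2 they were 69.0 CPM in the differentiating and 6.57 CPM in the regressed testis. After thinning, 68.5% of differentiating and 98.4% of regressed barcodes held none of these transcripts. The gene tmem81 alone was found in 23.4% of differentiating and 0.122% of regressed barcodes, with 2.83% in the differentiating barcodes that held Sertoli cell genes. The sixth member, spaca4l, was too low to be read, with 2.30 CPM in the differentiating and 3.83 CPM in the regressed testis. The genes tmem81, izumo1, spaca6 and dcst1 met the limit of 5 CPM only through the differentiating testis. The direction of the members read and their median are thus partly set by that limit. Over all 6 members, spaca4l included, the sum was 635 CPM in the differentiating and 14.1 CPM in the regressed testis.

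Most of the spermatid genes read followed. Of 21 members 18 were read and 15 were at least 2-fold higher in the differentiating testis, with a median log2 ratio of 2.657. This list shares members with the flagellum and fusion lists, so it is not a separate observation. Its most abundant gene, meig1, needed in mouse for the manchette and the sperm tail, had 702 CPM in the differentiating and 138 CPM in the regressed testis (ratio 5.09, 5.03 to 5.15). After thinning it was found in 52.2% of differentiating and 12.6% of regressed barcodes, where the share in barcodes with Sertoli cell genes was 10.4% in the differentiating and 9.57% in the regressed testis. The gene spata18 had 41.5 CPM in the differentiating and 0.580 CPM in the regressed testis. Of the spermatid genes read, only tekt2 was lower. Genes for sperm ion channels and pH did not follow. Their 11 members, of which 1 was read, summed to 11.2 CPM in the differentiating and 20.2 CPM in the regressed testis. The 1 read, hvcn1, made up 62.6% of that sum in the differentiating and 68.4% in the regressed testis.

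Genes of meiotic prophase were present in both libraries and were higher in the adult differentiating one by a smaller factor. In the synaptonemal complex, the protein ladder that holds paired chromosomes together, 4 of 6 members were at least 2-fold higher and the median log2 ratio was 1.433. That share was 66.7%, beside 21.7% of all genes. The transverse filament gene sycp1 had 1914 CPM in the differentiating and 267 CPM in the regressed testis (ratio 7.17, 7.11 to 7.23). The lateral element gene sycp3, the most abundant, had 2523 CPM in the differentiating and 1189 CPM in the regressed testis (ratio 2.12). For sycp2 the levels were 655 CPM in the differentiating and 179 CPM in the regressed testis, for syce3 they were 489 CPM in the differentiating and 142 CPM in the regressed testis, and for the axis gene hormad1 they were 326 CPM in the differentiating and 233 CPM in the regressed testis. The gene sycp2l, a relative of sycp2 known from the oocytes of mouse, was the exception with 3.06 CPM in the differentiating and 13.95 CPM in the regressed testis (ratio 0.219). After thinning, sycp1 was found in 71.3% of differentiating and 24.6% of regressed barcodes, with 34.9% of differentiating and 16.1% of regressed barcodes among those that held Sertoli cell genes. For sycp3 the shares were 88.3% of differentiating and 64.6% of regressed barcodes, and among barcodes with Sertoli cell genes 59.4% of differentiating and 54.7% of regressed.

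The cohesins of meiosis, rings that hold sister chromatids together, were higher without exception among the members read. In the whole libraries all 7 were at least 2-fold higher in the differentiating testis, with a median log2 ratio of 1.314. Among barcodes of 2000 to 8000 UMIs the median was 0.906, so most of the 7 members were under 2-fold there. With ribosomal protein and mitochondrially encoded genes left out of the denominator it was 1.018. The kleisin gene rad21l1 had 368 CPM in the differentiating and 81.5 CPM in the regressed testis (ratio 4.51, 4.44 to 4.59). The most abundant, smc1b, had 386 CPM in the differentiating and 155 CPM in the regressed testis. The smallest ratio was that of smc3, which mitotic cells use as well, at 362 CPM in the differentiating and 177 CPM in the regressed testis (ratio 2.04, 2.02 to 2.07).

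Meiotic recombination genes were less uniform. Of 27 members read 9 were at least 2-fold higher and 1 at least 2-fold lower in the differentiating testis. These were shares of 33.3% and 3.70%, beside 21.7% and 10.9% of all genes, and the median log2 ratio was 0.828. The crossover factor gene rnf212 had 129 CPM in the differentiating and 16.7 CPM in the regressed testis (ratio 7.72, 7.48 to 7.98). The strand exchange gene dmc1 had 251 CPM in the differentiating and 56.1 CPM in the regressed testis (ratio 4.47), and its accessory gene swi5 had 225 CPM in the differentiating and 40.4 CPM in the regressed testis. The gene spo11, whose product makes the breaks that start recombination, had 24.2 CPM in the differentiating and 32.5 CPM in the regressed testis (ratio 0.744, 0.712 to 0.778). The resolvase gene mus81 had 6.002 CPM in the differentiating and 13.3 CPM in the regressed testis. The 4 genes of meiotic entry were higher, 2 of them (50.0%, beside 21.7% of all genes) at least 2-fold. The RNA-binding gene rbm46 had 143 CPM in the differentiating and 54.3 CPM in the regressed testis, and its partner gene meioc had 127 CPM in the differentiating and 54.2 CPM in the regressed testis.

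Among regulators of late spermatocytes, 11 of 18 members read (61.1%, beside 21.7% of all genes) were at least 2-fold higher in the differentiating testis. None was at least 2-fold lower. The meiotic cyclin gene ccna1 had 149.8 CPM in the differentiating and 0.758 CPM in the regressed testis (ratio 198, 173 to 227). The gene hsf5, a heat shock factor that mouse and zebrafish spermatocytes need, had 386 CPM in the differentiating and 12.1 CPM in the regressed testis (ratio 31.8, 30.8 to 33.0). For mlf1 the levels were 424 CPM in the differentiating and 3.37 CPM in the regressed testis. The kinase subunit gene cks2, the most abundant, had 1408 CPM in the differentiating and 305 CPM in the regressed testis. The kinase gene cdk2 lay on the other side, with 92.3 CPM in the differentiating and 144 CPM in the regressed testis (ratio 0.639, 0.625 to 0.654). After thinning, hsf5 was found in 30.7% of differentiating and 1.15% of regressed barcodes, with 1.89% of differentiating and 0.832% of regressed barcodes among those that held Sertoli cell genes.

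Genes of chromosome segregation and genes of DNA replication parted. In the mitosis list, whose products also serve the meiotic divisions, 23 of 52 members read were at least 2-fold higher in the differentiating testis. At least 2-fold lower was 1 member, and the median log2 ratio was 0.896. The shares were 44.2% and 1.92%, beside 21.7% and 10.9% of all genes. The chromosomal passenger gene incenp had 727 CPM in the differentiating and 185 CPM in the regressed testis (ratio 3.93, 3.88 to 3.97). The cytokinesis gene racgap1 had 71.5 CPM in the differentiating and 11.3 CPM in the regressed testis, and the spindle kinase gene aurka had 150.1 CPM in the differentiating and 29.5 CPM in the regressed testis. Some centromere genes were on the other side, such as mis18a with 121 CPM in the differentiating and 205 CPM in the regressed testis. In the replication list, 3 of 54 members read (5.56%, beside 21.7% of all genes) were at least 2-fold higher. None was at least 2-fold lower, beside 10.9% of all genes, and the median log2 ratio was -0.014. The clamp gene pcna, the most abundant, had 497 CPM in the differentiating and 844.5 CPM in the regressed testis (ratio 0.588, 0.583 to 0.594), and the helicase gene mcm2 had 102 CPM in the differentiating and 173.5 CPM in the regressed testis. The ligase gene lig1 was higher, with 381 CPM in the differentiating and 148 CPM in the regressed testis. Per barcode after thinning, the median share of replication genes was 0.5% of UMIs in the differentiating and 0.6% in the regressed testis, while that of mitosis genes was 0.7% in the differentiating and 0.3% in the regressed testis. The range from the 10th to the 90th percentile of barcodes for mitosis genes was 0.3% to 1.3% in the differentiating and 0.1% to 0.9% in the regressed testis, so the ranges overlapped.

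Transcripts for ribosomal proteins made up 13.9% of all UMIs in the differentiating and 30.9% in the regressed testis. Of 83 members read, 51 (61.4%, beside 10.9% of all genes) were at least 2-fold lower and 0 at least 2-fold higher, with a median log2 ratio of -1.193. The small subunit gene rps27.1, the most abundant gene of the regressed testis, had 2489 CPM in the differentiating and 9725 CPM in the regressed testis (ratio 0.256, 0.255 to 0.257). The large subunit gene rpl23 had 2308 CPM in the differentiating and 8482 CPM in the regressed testis. The gene rpl22l1, for a paralog of a large subunit protein, had 411 CPM in the differentiating and 1616 CPM in the regressed testis, and after thinning it was found in 15.1% of differentiating and 77.9% of regressed barcodes. How reads shared by paralogs and their pseudogenes were assigned is not stated, so single genes of this family are uncertain.

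The lower share of ribosomal protein transcripts was a property of most differentiating barcodes and not of a few. After thinning, they made up 3.2%, 8.8% and 22.0% of UMIs at the 10th percentile, the median and the 90th percentile of differentiating barcodes, against 21.4%, 28.4% and 40.1% in the regressed testis. The 90th percentile of the differentiating testis was thus close to the 10th percentile of the regressed testis. Adult differentiating barcodes that held Sertoli cell genes differed from the rest of their library in this: rps27.1 was found in 96.2% of those 106 thinned barcodes against 64.6% of all thinned differentiating barcodes, and in 99.9% of regressed barcodes in both sets. Those 106 barcodes were deeper than the rest before thinning, and the part of depth in this was not tested.

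Transcripts of the mitochondrial genome were higher. The 13 protein genes together took 1.56% of UMIs in the differentiating and 0.201% in the regressed testis, and the 11 read were all at least 2-fold higher, with a median log2 ratio of 2.472. The cytochrome oxidase subunit gene COX2 was the most abundant gene of the differentiating testis, with 5631 CPM in the differentiating and 808 CPM in the regressed testis (ratio 6.97, 6.94 to 7.01). COX3 had 3902 CPM in the differentiating and 227 CPM in the regressed testis (ratio 17.2, 17.1 to 17.3), and COX1 had 1997 CPM in the differentiating and 132.0 CPM in the regressed testis. The smallest ratio among those read was that of ND4L, a subunit gene of complex I, with 12.1 CPM in the differentiating and 4.71 CPM in the regressed testis, followed by ND4 with 508 CPM in the differentiating and 153 CPM in the regressed testis. The share of mitochondrial transcripts also marks damaged cells, and 180 adult differentiating against 6 regressed barcodes had over 20% of their UMIs from these genes. Without them the median log2 ratio was 2.435. At the 10th percentile, the median and the 90th percentile, thinned barcodes had 0.4%, 1.5% and 2.8% of UMIs from these genes in the differentiating and 0%, 0.2% and 0.5% in the regressed testis. Nuclear genes of the respiratory chain did not share this direction: of 98 read, 3 were at least 2-fold higher (3.06%, beside 21.7% of all genes) and 11 at least 2-fold lower (11.2%, beside 10.9%, a share near that of all genes), with a median log2 ratio of -0.421. The most abundant of these in the regressed testis, atp5mc1, a gene for the ring of the ATP synthase, had 623 CPM in the differentiating and 1192 CPM in the regressed testis. Among barcodes of 2000 to 8000 UMIs the median log2 ratio of the nuclear genes was -0.131, above the -0.342 of all genes read there. In the whole libraries it was below that of all genes read, which was 0.133.

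**Figure D4:**
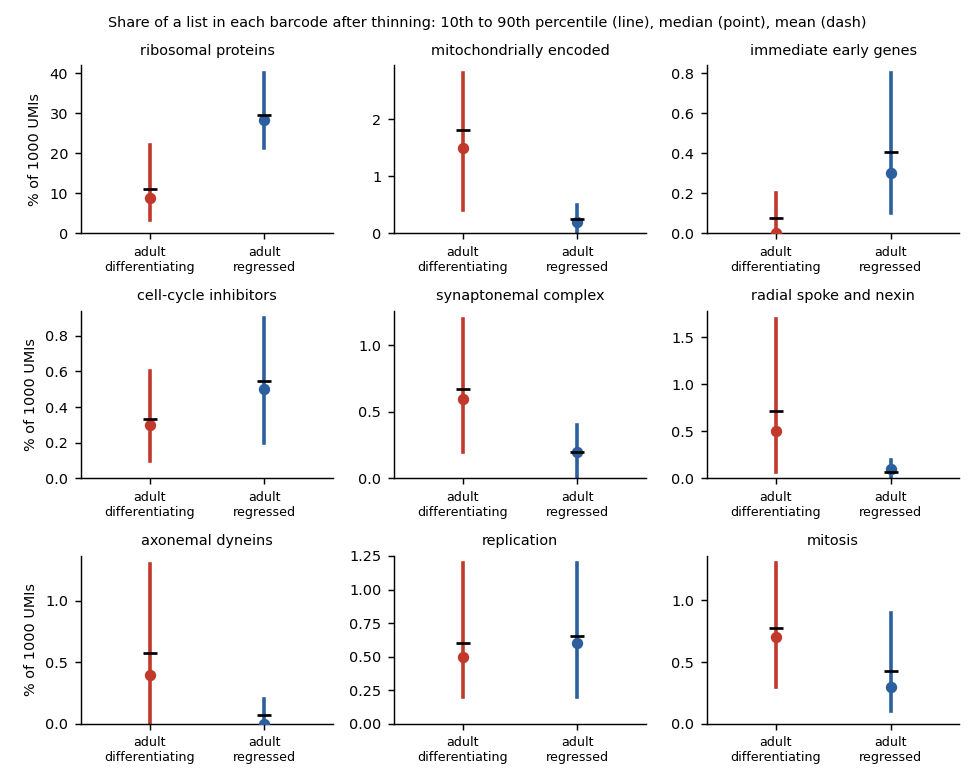
Percent of UMIs from each of 9 gene lists in single barcodes after thinning to 1000 UMIs, in the adult differentiating (red) and adult regressed (blue) library; lines run from the 10th to the 90th percentile of barcodes, points are medians and dashes are means. The ranges of the 2 libraries barely meet for ribosomal protein genes (3.2% to 22.0% against 21.4% to 40.1%) and almost coincide for replication genes (0.2% to 1.2% in both).

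Immediate early and stress genes, which cells transcribe within minutes of a stimulus, were lower as a group. Of 31 members read 19 (61.3%, beside 10.9% of all genes) were at least 2-fold lower in the differentiating testis. At least 2-fold higher were 4 (12.9%, beside 21.7%), and the median log2 ratio was -1.937. Their sum was 854 CPM in the differentiating and 3916 CPM in the regressed testis. The growth arrest and DNA damage gene gadd45b alone made up 34.6% of that sum in the regressed testis, with 46.4 CPM in the differentiating and 1356 CPM in the regressed testis (29.2-fold lower, ratio 0.0342, 0.0333 to 0.0352). After thinning, gadd45b was found in 3.09% of differentiating and 65.2% of regressed barcodes, with 11.3% of differentiating and 73.5% of regressed barcodes among those that held Sertoli cell genes. The AP-1 gene junbb had 18.1 CPM in the differentiating and 368 CPM in the regressed testis (20.4-fold lower), the immediate early gene ier2a had 7.60 CPM in the differentiating and 247 CPM in the regressed testis (32.5-fold lower), and the zinc finger gene egr2 had 0.895 CPM in the differentiating and 36.0 CPM in the regressed testis (40.2-fold lower).

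The immediate early list was not uniform. Its 3 highest ratios were those of klf4, with 17.2 CPM in the differentiating and 3.71 CPM in the regressed testis, of atf4a, the main gene of the integrated stress response, with 304 CPM in the differentiating and 131.5 CPM in the regressed testis, and of zfp36l1, which speeds the decay of messenger RNA, with 36.2 CPM in the differentiating and 16.9 CPM in the regressed testis. The gene fos, named here after its values were seen, was too low to be read at 0.535 CPM in the differentiating and 0.416 CPM in the regressed testis, although its relatives fosl1 and fosb, also named after their values were seen, were read. For fosl1 the levels were 24.6 CPM in the differentiating and 260.9 CPM in the regressed testis. After thinning, 50.8% of differentiating and 6.02% of regressed barcodes held no UMI of the list. As background, such genes also respond to tissue dissociation, which the labels describe alike for both libraries. Its part in these values was not tested.

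Genes that restrain the cell cycle were split. Of 24 members read 7 were at least 2-fold lower (29.2%, beside 10.9% of all genes) and 4 at least 2-fold higher (16.7%, beside 21.7%) in the differentiating testis, with a median log2 ratio of -0.308, and the list shares gadd45b and gadd45g with the stress list. The inhibitor gene cdkn1a, for p21, had 4.43 CPM in the differentiating and 90.4 CPM in the regressed testis (20.4-fold lower), and cdkn2a/b had 7.85 CPM in the differentiating and 124.2 CPM in the regressed testis (15.8-fold lower). The most abundant member, the cyclin G gene ccng1, had 1480 CPM in the differentiating and 2745 CPM in the regressed testis (1.85-fold lower). On the other side, the inhibitor gene cdkn2d had 341 CPM in the differentiating and 108 CPM in the regressed testis (ratio 3.17, 3.12 to 3.22), and the transcription factor gene foxo4 had 32.5 CPM in the differentiating and 3.78 CPM in the regressed testis.

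**Figure D5:**
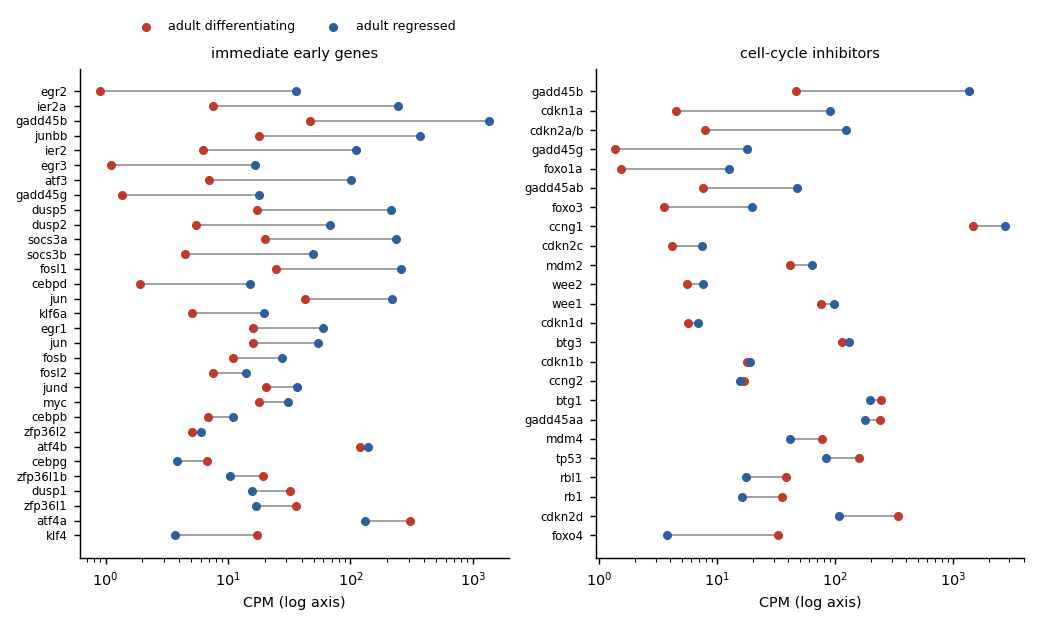
CPM on a log axis in the adult differentiating (red) and adult regressed (blue) library for the 31 immediate early and 24 cell-cycle inhibitor genes read, ordered by ratio from the lowest at the top. In the left panel egr2 (0.895 against 36.0 CPM) stands at the top and klf4 (17.2 against 3.71 CPM) at the bottom, and in the right panel gadd45b (46.4 against 1356 CPM) and foxo4 (32.5 against 3.78 CPM).

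Other genes with the lowest ratios had no list in common. The muscle actin gene actc1b had 0.117 CPM in the differentiating and 17.9 CPM in the regressed testis (153-fold lower, ratio 0.00654, 0.00338 to 0.0114), on 12 UMIs in the differentiating testis. The metal-binding gene mt2, a metallothionein, had 1.11 CPM in the differentiating and 54.9 CPM in the regressed testis (49.5-fold lower). The hepcidin gene hamp, a peptide of iron balance and defence, had 0.584 CPM in the differentiating and 24.9 CPM in the regressed testis. The cytokine signalling inhibitor gene cish had 5.21 CPM in the differentiating and 100.9 CPM in the regressed testis, and the p53 target gene phlda3 had 3.76 CPM in the differentiating and 75.4 CPM in the regressed testis. The chaperone cofactor gene bag2 had 1.58 CPM in the differentiating and 35.8 CPM in the regressed testis, and the myosin light chain gene myl9b had 0.973 CPM in the differentiating and 31.8 CPM in the regressed testis. The unnamed gene si:ch211-39i2.2 was the most abundant of these after gadd45b and junbb, with 6.73 CPM in the differentiating and 263 CPM in the regressed testis.

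Among the most abundant genes of the differentiating testis, ybx1 differed most outside the mitochondrial genes. This gene for a protein that packages and stores messenger RNA had 3227 CPM in the differentiating and 815 CPM in the regressed testis (ratio 3.96, 3.94 to 3.98), and after thinning it was found in 84.8% of differentiating and 52.5% of regressed barcodes. The chaperone gene hsp90ab1 had 4362 CPM in the differentiating and 2543 CPM in the regressed testis, and the tubulin gene tubb2b had 2992 CPM in the differentiating and 2298 CPM in the regressed testis. The cold-inducible RNA-binding gene cirbp had 4967 CPM in the differentiating and 6070 CPM in the regressed testis (ratio 0.818). The long noncoding RNA LOC104933449 was among the 10 most abundant genes of both libraries, with 3282 CPM in the differentiating and 9401 CPM in the regressed testis.

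Markers of the cells around the germ line were scarce in both libraries. The germ line gene ddx4, for the RNA helicase Vasa, had 757 CPM in the differentiating and 627.5 CPM in the regressed testis, a direction that turned under 5 of the other settings, ddx4 being lower there, and dazl had 196 CPM in the differentiating and 215 CPM in the regressed testis. Of 18 Sertoli cell genes 5 were read, and they summed, with the unread ones, to 40.3 CPM in the differentiating and 80.1 CPM in the regressed testis (ratio 0.502, 0.486 to 0.519). All 5 genes read were lower, and clu alone made up 33.0% of the sum in the differentiating and 43.2% in the regressed testis. Of the 5, krt8, krt18a.1 and cldn11a met the limit of 5 CPM only through the regressed testis. The common direction of the Sertoli cell genes read is thus partly set by that limit. The growth factor gene gsdf had 6.48 CPM in the differentiating and 8.38 CPM in the regressed testis. The unread Sertoli cell genes went both ways. The hormone gene amh had 0.0486 CPM in the differentiating testis, on 5 UMIs, and 0.140 CPM in the regressed testis, on 41 UMIs. By contrast, wt1 had 2.29 CPM in the differentiating and 1.43 CPM in the regressed testis, and fshr had 1.34 CPM in the differentiating and 0.393 CPM in the regressed testis. The steroid genes star and cyp17a1 were at 0.817 and 1.07 CPM in the differentiating and 0.430 and 0.270 CPM in the regressed testis, too low to be read. Of the 10 genes read in the Leydig cell and steroid list, 2 (20.0%, beside 10.9% of all genes) were at least 2-fold lower and 0 at least 2-fold higher, with a median log2 ratio of -0.421 and a sum, unread genes included, of 203 CPM in the differentiating and 268 CPM in the regressed testis. The 2 were the dehydrogenase genes hsd17b14, with 2.36 CPM in the differentiating and 8.15 CPM in the regressed testis, and hsd17b10, with 32.2 CPM in the differentiating and 83.6 CPM in the regressed testis. By any amount, 4 of the 10 genes read in that list were higher and 6 lower. The gene hsd17b14 met the limit of 5 CPM only through the regressed testis. Unread genes of the Leydig cell and steroid list went both ways, most of them higher in the differentiating testis. The Leydig cell gene insl3 had 3.648 CPM in the differentiating testis, on 375 UMIs, and 0.02048 CPM in the regressed testis, on 6 UMIs. For hsd17b12 the levels were 0.9729 CPM in the differentiating and 7.396 CPM in the regressed testis. The smooth muscle gene acta2 had 2.06 CPM in the differentiating and 14.2 CPM in the regressed testis, on the same side as the muscle genes actc1b and myl9b above. Its ratio was the lowest among the genes read in the peritubular and matrix list. Unread genes of that list went both ways. For myh11 the levels were 2.15 CPM in the differentiating and 1.29 CPM in the regressed testis, and for tagln 1.43 CPM in the differentiating and 6.06 CPM in the regressed testis. The whole peritubular and matrix list summed to 491 CPM in the differentiating and 399 CPM in the regressed testis over 83 genes, of which 16 were read. Of these 16, 4 were at least 2-fold higher (25.0%, near the 21.7% of all genes) and 3 at least 2-fold lower (18.8%, beside 10.9%). The 3 lower genes, acta2, lamb1 and col11a2, met the limit of 5 CPM only through the regressed testis. Of the 4 higher, col4a3 and col9a3 met it only through the differentiating testis. The median log2 ratio of the 16 genes read was -0.176, opposite in sign to the sum. The marker nanos2 of undifferentiated spermatogonia was not read, with 4.71 CPM in the differentiating and 0.331 CPM in the regressed testis. The genes read in its list went the other way. The unread ones went both ways, most of them higher in the differentiating testis. For zbtb16 the levels were 3.07 CPM in the differentiating and 1.22 CPM in the regressed testis, and for gfra1a 1.92 and 1.13 CPM in the same order. The genes pou5f3, nanos3, eomes, id4 and bcl6b were lower, bcl6b with 0.0778 CPM in the differentiating and 0.904 CPM in the regressed testis. Of 19 members 4 were read and all 4 were lower, with a median log2 ratio of -0.843. Of the 4 read, 2 (50.0%, beside 10.9% of all genes) were at least 2-fold lower. Of these 2, cd9a met the limit of 5 CPM only through the regressed testis, with 2.39 CPM in the differentiating and 9.36 CPM in the regressed testis. The unread foxi1 lay on the other side, with 8.74 CPM in the differentiating and 0.430 CPM in the regressed testis. The direction of the genes read is thus partly set by that limit. Among the 4, dnd1 had 33.0 CPM in the differentiating and 39.8 CPM in the regressed testis. The part of somatic cells in the list differences above was not tested.

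Of the genes named above by the rule for ratios and lists, spag1a, dnah9l and ddx4 changed direction at matched depth, and each had a ratio under 2 in the whole libraries. Among barcodes with 2000 to 8000 UMIs, 8044 in the differentiating testis (median 3957 UMIs) and 4476 in the regressed testis (median 4280), tmem81 had 658 CPM in the differentiating and 0.690 CPM in the regressed testis. In these barcodes cahz had 1258 CPM in the differentiating and 2.12 CPM in the regressed testis, ccdc181 had 315 CPM in the differentiating and 0.887 CPM in the regressed testis, and ak1 had 117 CPM in the differentiating and 0.246 CPM in the regressed testis. On the lower side gadd45b had 28.03 CPM in the differentiating and 1212 CPM in the regressed testis, junbb had 5.78 CPM in the differentiating and 366 CPM in the regressed testis, and cdkn1a had 1.93 CPM in the differentiating and 120 CPM in the regressed testis. The regressed barcodes in this depth range were 4476 of 17825 and came from the shallow part of that library, whose median barcode held 12788 UMIs. Whether they are typical of the regressed testis was not tested. The list medians kept their sign at matched depth for every list named above that had at least 3 members read. They were 3.609 for radial spokes, 2.801 for axonemal dyneins, 1.49 for the synaptonemal complex, 1.931 for mitochondrially encoded genes, -1.3 for ribosomal proteins and -2.785 for immediate early genes, beside a median of -0.342 for all genes read. Of the 2481 genes at least 2-fold higher, 2474 were found in a larger share of thinned differentiating barcodes, and all 1246 genes at least 2-fold lower were found in a smaller share. The thinned shares were drawn from the same UMIs as the ratios, so they are not a separate check.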

How the data were processed

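The deposited values were raw counts of UMIs for each gene in each barcode. Their matrix headers name Cell Ranger 5.0.0, while the submitters' processing notes name Cell Ranger 3.1.0 and STAR. The genome build and annotation are not given in the sources used here, nor is how reads shared by similar genes were assigned. Of 15972 features named by number, 15971 were found in a RefSeq gene table used for names only, and 6125 received a symbol. Features that share a symbol were not named singly.

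From these counts, UMIs were summed over barcodes with at least 500 UMIs and 300 genes, doublets included, and scaled to CPM. Ratios are adult differentiating over adult regressed. Sums carry exact Poisson intervals, ratios exact conditional binomial intervals and shares exact Clopper-Pearson intervals, at 95%, for counting error only. With 1 library per group there was no test, and "at least 2-fold" is a size. Shares of barcodes were compared after thinning without replacement to 1000 UMIs, which left out 1471 adult differentiating and 662 adult regressed barcodes.

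The genes and the 59 lists were chosen with earlier results of these data known, and the name patterns of several lists were corrected after their members had been read. A list of citric acid cycle genes was dropped because its pattern took in unrelated genes. Named genes are the 15 with the highest and the 15 with the lowest ratio among genes read with a symbol, the 10 most abundant of each library, up to 3 highest and 3 lowest and the most abundant of each list, and defining cell type markers. The genes fos, fosl1, fosb, 2 noncoding RNAs and some unread genes of the cell type lists were added after their values were seen. Ratios and intervals were tested on simulated counts. Alternatives changed filters, scaling, the weight of barcodes and depth; those with ribosomal protein and mitochondrial genes left out of the denominator, without shared barcodes, and with thinned sums were added after seeing the data. Python 3.11.15, numpy 2.4.6, scipy 1.17.1 and pandas 2.3.3 were used.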

Additional observations from a re-analysis of the deposited data

How the results depend on the processing

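No paired analysis was possible because each group had 1 library, so no replicate could be left out either. The 1246 genes at least 2-fold lower became 2484 without the 10% deepest barcodes, 3353 among barcodes of 2000 to 8000 UMIs, 2138 with the 50 most abundant genes of either library left out of the denominator, 2470 with the mean over barcodes, 2291 with a denominator free of ribosomal protein and mitochondrially encoded genes, and 2414 after each barcode was thinned to 1000 UMIs. In the same settings the 2481 genes at least 2-fold higher became 2717, 2197, 1950, 2412, 1865 and 2446. A limit of 20 mean CPM left 618 lower genes, and a limit of 3 UMIs in 1 library gave 5377 higher and 4458 lower genes; both change the number of genes tested. Of the 1246 lower genes, 1149 were also lower among barcodes of 2000 to 8000 UMIs. The share of 2-fold calls that were higher was 66.6% as reported, 61.6% with median-of-ratios scaling, 47.7% and 44.9% with the 2 other denominators in the order above, and 39.6% at matched depth; the cause was not tested. The 30 genes with the highest and lowest ratios among those with a symbol kept their direction under every alternative that gave a value, and 4 ratios gave none because a sum was 0. Of 56 lists, 39 kept the sign of their median under every alternative and 17 changed it under at least 1, among them the piRNA pathway, DNA damage response, splicing, chromatin remodelling and hormone receptors. The list medians ran from 2.84 to 3.609 for radial spokes, 2.37 to 3.054 for axonemal dyneins, 5.169 to 6.636 for sperm-egg fusion, 1.138 to 1.734 for the synaptonemal complex, 0.601 to 1.001 for mitosis, 1.931 to 2.479 for mitochondrially encoded genes, -1.577 to -1.192 for ribosomal proteins and -2.785 to -1.933 for immediate early genes. The regressed library held about as many barcodes but far more UMIs, so low levels in the differentiating testis carry the wider intervals.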

Other observations

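Several gene groups outside spermatogenesis proper also held genes that differed in level. Of 16 genes of retinoic acid metabolism read, 8 (50.0%, beside 10.9% of all genes) were at least 2-fold lower in the differentiating testis. At least 2-fold higher were 2 (12.5%, beside 21.7%), and the median log2 ratio was -0.909. The list sum, unread genes included, was not lower, with 390 CPM in the differentiating and 377 CPM in the regressed testis. Of the genes named next, rdh10 met the limit of 5 CPM only through the regressed testis. The retinol dehydrogenase gene rdh10, for a first step toward retinoic acid, had 2.57 CPM in the differentiating and 12.3 CPM in the regressed testis, while dhrs11 had 148 CPM in the differentiating and 30.0 CPM in the regressed testis. Of 24 glycolysis genes read, 7 were at least 2-fold lower (29.2%, beside 10.9% of all genes). At least 2-fold higher were 2 (8.33%, beside 21.7%), and the median log2 ratio was -0.294. The glyceraldehyde phosphate dehydrogenase gene gapdhs, named after the form found in mammalian sperm, had 128.5 CPM in the differentiating and 421.5 CPM in the regressed testis (ratio 0.305, 0.299 to 0.310), and tpi1a had 1.64 CPM in the differentiating and 19.2 CPM in the regressed testis. In the list of oocyte genes, 5 of 14 were read, and 2 of them (40.0%, beside 10.9% of all genes) were at least 2-fold lower and 0 at least 2-fold higher. The most abundant, zar1, had 53.2 CPM in the differentiating and 101.4 CPM in the regressed testis, and figla, a transcription factor gene of oocytes, had 8.13 CPM in the differentiating and 21.8 CPM in the regressed testis. The transcription factor gene nobox was on the other side, with 16.8 CPM in the differentiating and 8.47 CPM in the regressed testis (ratio 1.99). The gene zar1l, at 3.81 CPM in the differentiating and 8.15 CPM in the regressed testis, met the limit of 5 CPM only through the regressed testis. Unread genes of the oocyte list went both ways, most of them higher in the differentiating testis. For zp3d.2 the levels were 1.595 CPM in the differentiating and 0.437 CPM in the regressed testis, and for kpna7 2.705 CPM in the differentiating and 4.744 CPM in the regressed testis.

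Transcription factor families held members with high and with low ratios. The homeobox gene lhx8 had 28.4 CPM in the differentiating and 0.198 CPM in the regressed testis (ratio 143, 110.5 to 189), and the cell-division factor gene foxm1 had 119 CPM in the differentiating and 8.61 CPM in the regressed testis (ratio 13.9, 13.3 to 14.5). The forkhead genes foxo1a and foxo3 were on the other side. For foxo1a the levels were 1.52 CPM in the differentiating and 12.6 CPM in the regressed testis, and for foxo3 they were 3.54 CPM in the differentiating and 19.8 CPM in the regressed testis. The whole list had a median log2 ratio of 0.478, which was -0.38 at matched depth. Among solute carriers, slc44a5, of the choline transporter-like family, had 576.5 CPM in the differentiating and 14.9 CPM in the regressed testis (ratio 38.6, 37.5 to 39.8), and slc22a16, a carnitine transporter gene in human testis, had 32.8 CPM in the differentiating and 0.205 CPM in the regressed testis. Of 156 long noncoding RNAs read, 57 (36.5%) were at least 2-fold higher and 36 (23.1%) at least 2-fold lower, beside 21.7% and 10.9% of all genes. A feature near the limit for genes read can meet it through the library in which it is high, which can raise both shares. All genes were not matched to these RNAs for level.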
